A study of Oryctolagus cuniculus with 12 samples.

Results

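Corneas of rabbits from the groups labelled GL and RL were compared directly, with 3 libraries on each side. The genes described are those with an FPKM (fragments scaled to gene length and library size) of at least 1 in 3 or more of these 6 libraries, which held for 13107 of 29076 genes in the deposited table. Of these, 13106 could be tested. All animals were aged 6 months and fed a normal diet, and the label of a light exposure lasting 6 weeks stands on every library of the series, also on 3 controls and 3 blue_light libraries. The labels name no strain or genotype, give no wavelength or intensity, and do not spell out GL or RL, so the groups are called by these letters. It is not stated whether each library stands for its own animal, so p-values reflect only how far these samples vary, and part of that variation may be technical.

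The cornea is the clear front of the eye and consists of a layered epithelium, a collagen-rich stroma with keratocytes, and a single layer of endothelial cells. The epithelium is renewed throughout life from stem cells at its rim, and Hippo and Wnt signalling take part in that renewal. In the Hippo pathway a kinase cascade restrains the coactivators YAP1 and WWTR1 (TAZ), which act on DNA through the TEAD transcription factors.

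The GL libraries held 61.6 to 64.7 M (mega) counts and the RL libraries 45.9 to 62.4 M, with RL 1 the smallest (exact two-sided permutation p = 0.3 for the totals, where 0.1 is the smallest possible; 0.903 after adjustment over 40 values per library). A floor of 3 fragments corresponded to 0.178 to 0.191 CPM (counts per mega of library counts) in GL and 0.191 to 0.249 in RL. The RL libraries were less alike: over the described genes the median SD of log2 CPM was 0.37 in RL and 0.22 in GL, and the SD was larger in RL for 70.4% of genes. RL 1 was the highest of the 6 libraries for 28.9% of genes and the lowest for 29.1%. It also had 2486 genes at counts of 1 to 20, against 1014 and 1055 in the other RL libraries and 767 to 1461 in GL.

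With all 12 libraries in one edgeR quasi-likelihood fit, 13 genes passed a Benjamini-Hochberg adjusted p of 0.05 between GL and RL, or 0.0715% of 18171 genes tested. TEAD1, SDK1, HPN and DIP2C were higher in GL (0.022%). HSPA13 and 8 gene copies annotated as ribosomal protein L17 were lower in GL (0.0495%). These 13 genes are called changed below, and all others are given as values. Of the described genes 6423 had a higher and 6683 a lower value in GL, with a median log2 difference of −0.01, and 1115 had an unadjusted p below 0.05. In 1022 genes (7.8%) every GL library lay above every RL library in CPM, and in 915 (6.98%) every one lay below, the 13 called genes among them. Among the described genes, the count of 13 became 5 without GL 1, 7 without GL 3 and 8 without RL 3. It became 22 without GL 2 and 24 without RL 2. DESeq2 called 125 described genes, 60 higher and 65 lower, and a further 72 genes outside the described.

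**Figure D1:**
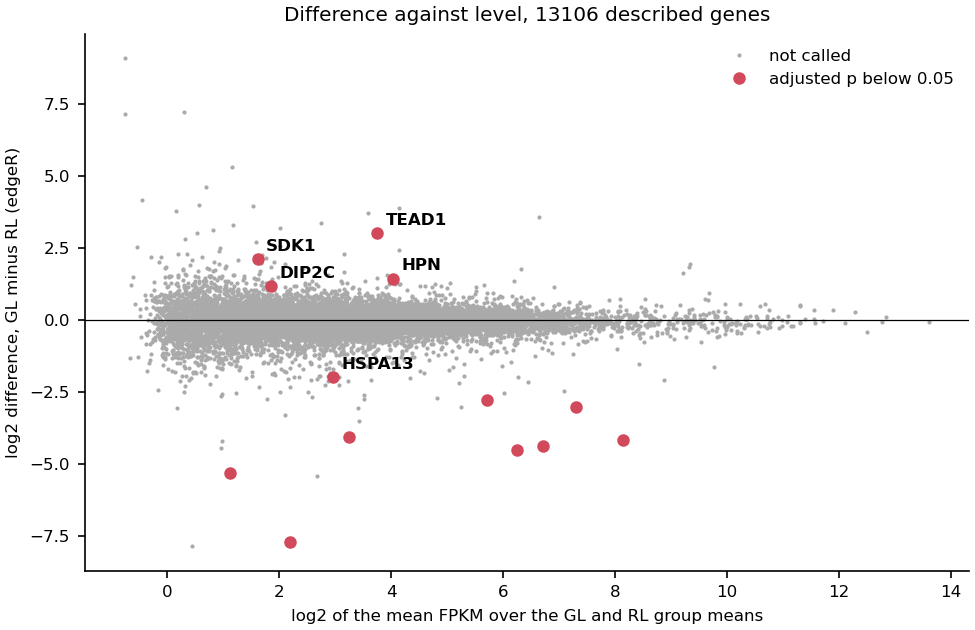
Difference between GL and RL (vertical axis, log2, from the edgeR fit) against level (horizontal axis, log2 of the mean of the GL and RL mean FPKM) for 13106 described genes, with the 13 genes past the adjusted threshold in red. TEAD1, SDK1, HPN and DIP2C lie above 0, while HSPA13 and 8 unnamed copies of ribosomal protein L17 lie below, among many uncalled genes of similar size.

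TEAD1, a member of the TEAD family through which YAP1 reaches its target genes, showed the clearest difference of a named gene. It lies on the plus strand of chromosome 1 at 154444263-154726630, as deposited. Its FPKM was 24.9, 21.2 and 25.9 in GL 1 to 3 and 4.42, 2.55 and 1.91 in RL 1 to 3. All GL libraries thus stood far above all RL libraries, and the GL values were at the level of the controls (23.5 ± 2.20, SD, n = 3) and of blue_light (24.5 ± 3.28). TEAD1 was 8.08-fold higher in GL (log2 3.01 ± 0.26 SE, edgeR adjusted p = 0.000436). Against the shared controls, the log2 difference was 0.08 for GL (adjusted p = 0.954) and −2.93 for RL (adjusted p = 0.000580), where GL minus control called 0.055% and RL minus control 0.011% of all genes tested. In whole tissue, fewer cells of a type and less RNA per cell cannot be told apart, here and in all that follows.

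The 3 other TEAD genes did not differ in this way. TEAD2 had an FPKM of 19.3, 27.9 and 24.6 in GL and 15.2, 27.0 and 18.7 in RL, TEAD3 had 30.2, 32.0 and 23.5 against 19.5, 24.6 and 25.2, and both overlapped between groups. TEAD4, the rarest, had 1.63, 3.16 and 2.24 in GL and 4.17, 5.17 and 2.68 in RL. TEAD1 therefore made up 30.6% ± 4.76 of the summed FPKM of the 4 genes in GL and 6.14% ± 3.52 in RL (SD, n = 3 each), against 32.4% ± 3.82 in control. The sum itself was 78.8 ± 4.58 FPKM in GL and 50.4 ± 8.16 in RL.

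Of 26 described genes of the TEAD family and the Hippo pathway, TEAD1 alone was called, 14 had higher and 12 lower values in GL, and the median was 0.08 (−0.05 without RL 3). Among the coactivators, YAP1 had an FPKM of 37.5, 39.3 and 37.5 in GL and 69.3, 39.0 and 49.4 in RL (log2 −0.47 ± 0.18, edgeR adjusted p = 0.548), so that RL 2 reached the GL range. WWTR1 differed by −0.12 ± 0.15. The kinase genes LATS1 and LATS2 differed by −0.85 ± 0.42 and 0.28 ± 0.15. The membrane-linked regulator NF2 differed by 0.10 ± 0.19 and AJUBA, which binds the LATS kinases, by 0.39 ± 0.19. The inhibitory VGLL4, which competes with YAP1 for TEAD proteins, differed by 0.18 ± 0.21.

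Genes known as targets of YAP and TEAD proteins went in both directions, with more of them higher in GL. None of 19 was called, 13 were higher and 6 lower in GL, with a median of 0.14. In 3 of the 19 every GL library lay above every RL library, and in 1 every one lay below. Over all described genes these shares were 7.8% and 6.98%. Without RL 3 the median was 0.02, with 12 higher and 7 lower. The matricellular gene CYR61 had an FPKM of 19.8, 29.1 and 35.4 in GL and 23.5, 70.3 and 78.9 in RL (log2 −1.06 ± 0.39, edgeR adjusted p = 0.544), and CTGF had 47.0, 108 and 79.3 against 60.3, 196 and 116 (−0.69 ± 0.40). Both overlapped, and both were highest in RL 2 and RL 3. The kinase gene NUAK2 had 17.4, 18.9 and 16.4 in GL and 9.11, 9.69 and 9.89 in RL, with no overlap (0.86 ± 0.38, adjusted p = 0.581). AXL, a receptor kinase, differed by 0.06 ± 0.17.

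SDK1, a cell adhesion molecule of the immunoglobulin superfamily, was 4.37-fold higher in GL. Its FPKM was 5.37, 3.81 and 5.86 in GL and 1.02, 1.30 and 1.08 in RL. The GL libraries also lay above all controls (mean 1.67 ± 0.478, SD, n = 3) and blue_light libraries (2.37 ± 0.270). The log2 difference between GL and RL was 2.13 ± 0.29 (edgeR adjusted p = 0.0117). Against control it was 1.63 for GL (adjusted p = 0.105) and −0.50 for RL (adjusted p = 1).

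HPN encodes hepsin, a serine protease anchored in the cell membrane. It had an FPKM of 30.4, 18.1 and 23.8 in GL and 7.12, 10.4 and 8.52 in RL, and it stood at 12.0 ± 1.54 in control and 13.3 ± 1.32 in blue_light. The groups did not overlap, and GL was 2.73-fold higher (log2 1.45 ± 0.23, edgeR adjusted p = 0.0409). DIP2C, a member of the disco-interacting protein family, had 5.81, 5.24 and 4.13 in GL and 1.90, 2.47 and 2.24 in RL, with controls at 5.21 ± 0.538. It was 2.26-fold higher in GL (1.17 ± 0.18, adjusted p = 0.0409), and like TEAD1 it stood in GL at the level of the controls. All 3 genes lie on unplaced sequences. The calls of HPN and DIP2C were the least firm: they ended in 10 and 13 of 21 alternative analyses, that of SDK1 in 7 and that of TEAD1 in 1. The edgeR adjusted p of SDK1 was 0.0901 without GL 1, 0.0659 without GL 3, 0.0646 without RL 1 and 0.0874 without RL 3. Without the same libraries it was 0.223, 0.147, 0.122 and 0.199 for HPN, and 0.223, 0.0548, 0.114 and 0.176 for DIP2C, which stood at 0.0947 without GL 2.

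**Figure D2:**
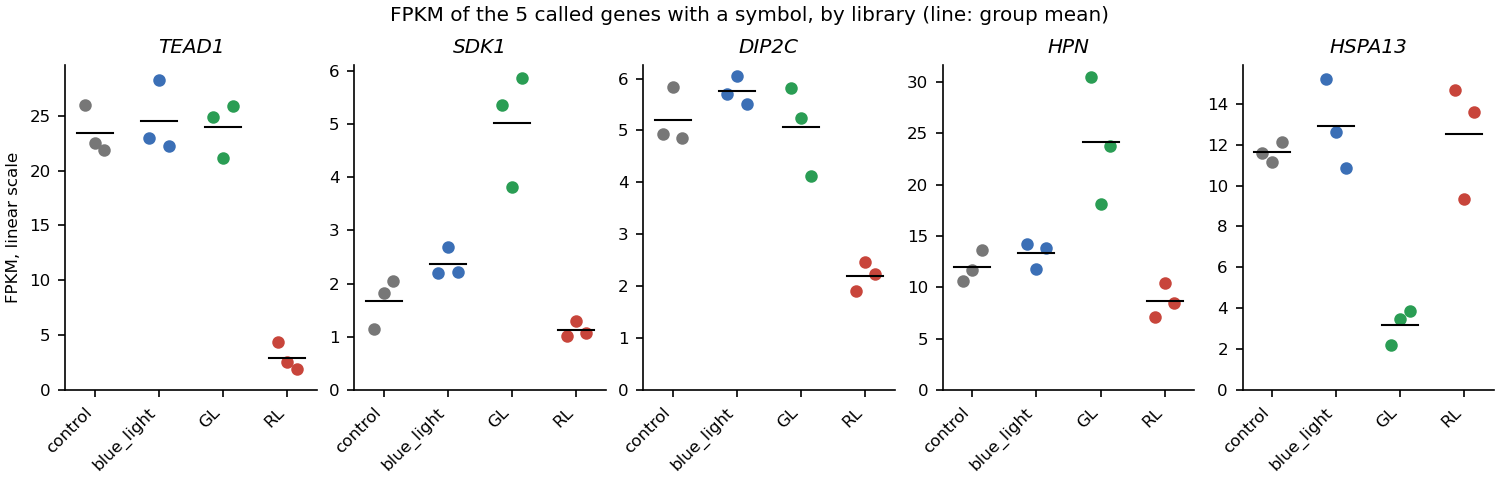
FPKM (linear axis from 0) of the 5 called genes that carry a symbol, with a point for each library and a line at the mean of the 3 libraries of a group. TEAD1 and DIP2C stand low in RL alone, HSPA13 low in GL alone, and SDK1 and HPN are highest in GL.

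HSPA13, an atypical chaperone of the Hsp70 family found in microsomes, was the called gene with a symbol that fell in GL relative to RL. It lies on the minus strand of chromosome 14 at 142215376-142227082. The FPKM was 2.18, 3.45 and 3.87 in GL and 14.7, 9.34 and 13.6 in RL, with controls at 11.6 ± 0.494 (SD, n = 3) and blue_light at 12.9 ± 2.20. Every GL library lay below every other library of the series. RL was 3.97-fold higher than GL (log2 −1.99 ± 0.24, edgeR adjusted p = 0.00651), while the difference from control was −1.82 in GL (adjusted p = 0.0142) and 0.17 in RL (adjusted p = 1). The call ended in 2 of 21 alternatives, both of them fits of the 6 GL and RL libraries alone.

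HSPA13 is 1 of 27 described genes in the list of heat shock and the unfolded protein response. Of these, HSPA13 included, 19 had lower values in GL and 8 higher, 6 were separated below RL and none above, and the median was −0.16. Over all described genes, 6.98% were separated below RL and 7.8% above, and 49.0% had a higher value in GL. Without RL 2 the median was −0.03, with 15 of 27 lower. HSPB8, a small heat shock protein, had an FPKM of 13.4, 20.7 and 11.8 in GL and 22.9, 58.8 and 68.3 in RL (log2 −1.74 ± 0.48, edgeR adjusted p = 0.402). HSPA8, the abundant constitutive Hsp70 chaperone, had 478, 528 and 482 against 843, 570 and 789 (−0.58 ± 0.31), and HSPE1, the mitochondrial co-chaperonin, differed by −0.48 ± 0.16. A copy annotated as a partial heat shock protein HSP 90-alpha, LOC103348580, was named after its values were seen. It had 2.26, 2.69 and 2.47 in GL and 15.2, 5.25 and 10.4 in RL, with controls at 2.69 ± 1.15 (−2.05 ± 0.45, adjusted p = 0.197), and its reads may be shared with other copies.

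The remaining 8 called genes were all lower in GL and are annotated as copies of ribosomal protein L17, a component of the large ribosomal subunit. The most abundant, LOC100339314, lies on chromosome 2 at 27709518-27710158. It had an FPKM of 42.6, 23.9 and 22.9 in GL and 718, 243 and 641 in RL (log2 −4.17 ± 0.48, edgeR adjusted p = 0.00448). LOC100355297 on chromosome 11 had 7.79, 14.3 and 7.09 in GL and 275, 110 and 219 in RL (−4.37 ± 0.36, adjusted p = 0.000436). LOC100339582 on chromosome 17 had 30.9, 34.7 and 40.1 in GL and 224, 181 and 442 in RL (−3.02 ± 0.33, adjusted p = 0.00361). In each, the lowest RL library stood well above the highest GL library. LOC100350920 (−4.08), LOC108178018 (−2.79) and LOC100352781 (−4.53) had adjusted p of 0.00673, 0.0117 and 0.0218. LOC100354651 (adjusted p = 0.00673) and LOC100355319 (adjusted p = 0.0277) lay below the detection floor in every GL library, so no fold is given for them. LOC100354651 lost its call without GL 1 (0.0901), and LOC100350920 and LOC108178018 lost theirs without GL 1 (0.0598 and 0.113) or GL 3 (0.0595 and 0.0801). LOC100352781 kept its call without RL 2 alone (0.0586 to 0.174 without any other library), and LOC100355319 lost its call without GL 1, GL 3, RL 1 or RL 3 (0.0501 to 0.210).

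Summed over the family, the groups were close. Near-identical copies share reads, and how reads that match several copies were assigned is not given in the sources used here, so the value of any copy is uncertain. Summed over 29 entries with this annotation, the level was 1108 ± 52.5 CPM in GL and 1223 ± 146 in RL, against 1260 ± 193 in control (SD, n = 3 each). The 8 called copies summed to 64.1 ± 1.53 CPM in GL and to 1035, 457 and 1110 in RL 1 to 3. The uncalled copies LOC108176634 (log2 −1.95, edgeR adjusted p = 0.126) and LOC100353915 (−3.03, edgeR adjusted p = 0.402) were lower in GL as well. Most of the remaining entries were at 0 in every library. A further copy, LOC108175352, went the other way: it held 92.3%, 93.2% and 92.6% of the family in GL and 8.57%, 53.4% and 9.54% in RL (log2 1.94, edgeR adjusted p = 0.537). It held 8.34% in control 1 and 51.5% to 55.8% in the other controls and in blue_light. GL therefore had 1 narrow distribution over the copies, while RL 1 and RL 3 resembled control 1, and RL 2 the remaining 5 libraries.

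**Figure D3:**
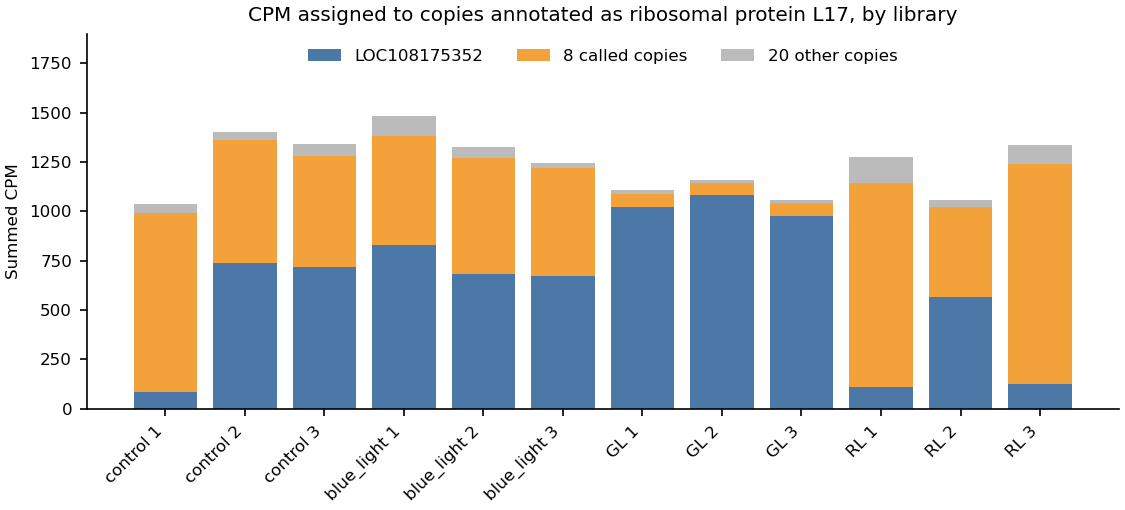
Summed CPM (linear axis from 0) of gene copies annotated as ribosomal protein L17 in each of the 12 libraries, split into LOC108175352, the 8 called copies and 20 others. The totals lie between 1039 and 1483 CPM, while the share of LOC108175352 is 92.3% to 93.2% in GL and at most 55.8% elsewhere.

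Below the threshold, the separated genes with the smallest p that were higher in GL are given as values. CDK5RAP1, which modifies mitochondrial transfer RNA, had an FPKM of 8.93, 7.62 and 8.29 in GL and 3.84, 3.93 and 3.61 in RL (log2 1.11 ± 0.20, edgeR adjusted p = 0.126). ZBTB10, a zinc finger repressor, had 4.55, 4.98 and 5.04 against 2.68, 1.92 and 1.32, with controls at 5.36 ± 0.563 (1.29 ± 0.24, adjusted p = 0.126). Both stood in GL close to the controls and lower in RL. SPOCK2, a proteoglycan of the extracellular matrix, had 9.50, 11.3 and 11.1 against 5.06, 6.19 and 4.95 (0.96 ± 0.18, adjusted p = 0.126). DOCK8, an activator of the small GTPase CDC42, was the most even within groups, at 10.2, 10 and 10.02 against 5.96, 5.60 and 5.55 (0.81 ± 0.16, adjusted p = 0.132).

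The other 4 genes of that order were higher in GL without being called. KANK4, a regulator of the actin cytoskeleton, had an FPKM of 3.51, 3.14 and 3.27 in GL and 0.433, 0.837 and 0.429 in RL, with controls between at 1.45 ± 0.960 (log2 2.52 ± 0.50, edgeR adjusted p = 0.132). TTC9 had 11.8, 24.9 and 8.21 against 2.92, 4.40 and 1.59 (2.31 ± 0.45), with controls at 4.74 ± 1.86, and at 23.8 ± 3.56 it was as high in blue_light as in the highest GL library. TNFRSF21, a death receptor of the tumour necrosis factor receptor family, differed by 0.82 ± 0.17, with GL at 26.5 ± 2.97, RL at 14.8 ± 1.41 and controls at 18.1 ± 3.32. MTURN, a gene known from neural differentiation, differed by 0.75 ± 0.16, with GL at 65.7 ± 5.73, RL at 38.7 ± 7.16 and controls at 60.2 ± 1.03. For both genes GL and RL were separated.

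Among genes lower in GL, KRT20 had the largest difference of the genes named by this order. It encodes a keratin known from the surface cells of gut and bladder. Its FPKM was 1.63, 1.76 and 1.82 in GL and 20.6, 27.0 and 11.8 in RL, while control stood at 2.45 ± 2.06 and blue_light at 2.33 ± 0.641 (SD, n = 3). All 3 RL libraries thus lay well above the means of the 3 other groups. The log2 difference between GL and RL was −3.53 ± 0.73 (edgeR adjusted p = 0.166), that between RL and control 3.06 (adjusted p = 0.558). KRT20 passed the threshold in 4 of 21 alternatives, among them the fit of the 6 libraries alone.

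SERPINB10, an inhibitor of serine proteases, had an FPKM of 14.4, 11.3 and 11.3 in GL and 27.7, 32.6 and 28.01 in RL (log2 −1.28 ± 0.24, edgeR adjusted p = 0.132). ATP13A3, a transport ATPase linked to polyamine uptake, had 2.48, 2.41 and 1.94 against 16.0, 7.91 and 5.01 (−2.08 ± 0.40, adjusted p = 0.132). AAK1, a kinase of clathrin-mediated endocytosis, had 1.55, 1.09 and 1.20 against 5.81, 4.90 and 2.57 (−1.80 ± 0.36, adjusted p = 0.151). In ATP13A3 and AAK1 the separation was wide but RL itself spread over a broad range, with RL 1 the highest. RGS20, a regulator of G-protein signalling (−2.48 ± 0.48), and the zinc finger gene ZNF248 (−2.10 ± 0.40) were rare in GL, at 0.243 to 0.441 and 0.254 to 0.839 FPKM. TMEM168 and FAM103A1, the latter an activator of messenger RNA cap methylation, both differed by −0.87 ± 0.17. IPCEF1 (−1.19 ± 0.27) and the phosphatase gene PTPRE (−1.50 ± 0.33) stood below 1 FPKM in all GL libraries.

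Immediate early genes, which cells transcribe quickly after a stimulus, had the lowest median of the 36 gene lists. Of 16 described, none was called, 14 were lower in GL and 6 were separated below RL, against 6.98% of all described genes. The median was −1.36, against −0.01 over all described genes. FOS, a subunit of the AP-1 transcription factor, had an FPKM of 39.7, 33.2 and 53.2 in GL and 224, 140 and 331 in RL (log2 −2.47 ± 0.55, edgeR adjusted p = 0.211). DUSP1, a phosphatase that turns off MAP kinases, had 20.4, 44.1 and 31.4 against 122, 95.5 and 209 (−2.16 ± 0.53, adjusted p = 0.295). Neither overlapped, and both stood near control in RL, whose FOS values spread widely (221 ± 126, SD, n = 3).

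EGR1, a zinc finger transcription factor, had an FPKM of 44.6, 73.3 and 53.99 in GL and 128, 101 and 173 in RL (log2 −1.24 ± 0.38), and ZFP36, which destabilises messenger RNA of cytokines, had 37.8, 40.8 and 34.7 against 94.1, 82.5 and 134 (−1.47 ± 0.49). RL 3 was the highest library for most members and far apart in some: FOSB had 119 there, against 15.2 and 13.02 in RL 1 and RL 2, and ATF3 had 122 against 15.8 and 17.9. Without RL 3 the median moved to −0.65, with 12 of 16 lower. FOSL2 (0.18 ± 0.18) and IER3 (0.00 ± 0.30) did not share the direction.

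Genes of inflammation leaned lower in GL as well: 9 of 14 were lower, 3 were separated below RL, and the median was −0.50. Among all described genes 6.98% were separated below RL. With GL 3 and RL 2 both left out, 7 of 14 were lower and the median was −0.30. PTGS2, the inducible cyclooxygenase, had an FPKM of 2.49, 5.07 and 1.64 in GL and 7.62, 11.8 and 15.4 in RL (log2 −1.94 ± 0.54, edgeR adjusted p = 0.405). The neutrophil attractant CXCL8 had 0.601, 0.720 and 0.298 against 1.38, 1.05 and 7.67, where RL 3 sets most of the difference, and LCN2, an iron-binding protein of innate defence, had 0.455, 1.24 and 0 against 4.46, 2.31 and 3.32. Without RL 3 the median of the list was −0.60. The regulators NFKBIA (0.03 ± 0.28) and NFKB1 (0.19 ± 0.18) lay near 0. Markers of immune cells were lower too: 4 of 6 described were lower, 2 of them separated below RL, with a median of −0.88, or −0.47 without RL 3 and −0.31 without GL 3 and RL 2. Their mean log2 CPM was −0.0013 in GL 3 and 1.34 to 2.30 in the 5 other libraries, while the sum over the list was 40.2 to 57.0 CPM in GL and 35.3 to 69.3 CPM in RL. CD3D, CD3E and NKG7 of lymphocytes were at 0 in all 6 libraries, and the part of immune cells in the inflammation genes was not tested.

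In the cholesterol and fatty acid list 14 of 18 genes were lower in GL, with a median of −0.29. Of these 18, 4 were separated below RL and none above, against 6.98% and 7.8% of all described genes. HMGCS1, which makes the precursor of mevalonate, had an FPKM of 29.9, 19.0 and 13.5 in GL and 40.03, 56.0 and 56.3 in RL (log2 −1.32 ± 0.30, edgeR adjusted p = 0.236). SQLE, the squalene epoxidase, had 27.3, 22.5 and 23.6 against 31.9, 41.2 and 39.9 (−0.64 ± 0.19). The controls stood at 23.2 for HMGCS1 and 26.9 for SQLE, close to GL. SC5D, a late enzyme of the pathway, differed by −0.53 ± 0.18. The regulators SREBF1 (0.13 ± 0.18) and SREBF2 (0.14 ± 0.27) did not share the direction. Leaving out any 1 of the 6 libraries gave medians between −0.44 and −0.19.

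Wnt genes leaned the other way. Of 26 described, 16 were higher in GL, with a median of 0.27. Of the same 26, 7 were separated above RL and none below, against 7.8% and 6.98% of all described genes. The ligand WNT4 had an FPKM of 88.1, 63.5 and 71.9 in GL and 29.3, 38.1 and 47.6 in RL (log2 0.94 ± 0.29, edgeR adjusted p = 0.466), with controls at 60.2 ± 24.3. The secreted antagonist SFRP1 had 17.2, 24.0 and 18.2 against 9.97, 15.8 and 12.8 (0.60 ± 0.28). The remaining separated members were the receptor FZD8, the antagonist WIF1, the feedback genes AXIN2 (0.34 ± 0.21) and ZNRF3 (0.38 ± 0.24), and RNF43 (0.44 ± 0.21). CTNNB1, which encodes the effector beta-catenin, differed by −0.11 ± 0.15. Without a GL or RL library the median lay between 0.11 and 0.32.

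**Figure D4:**
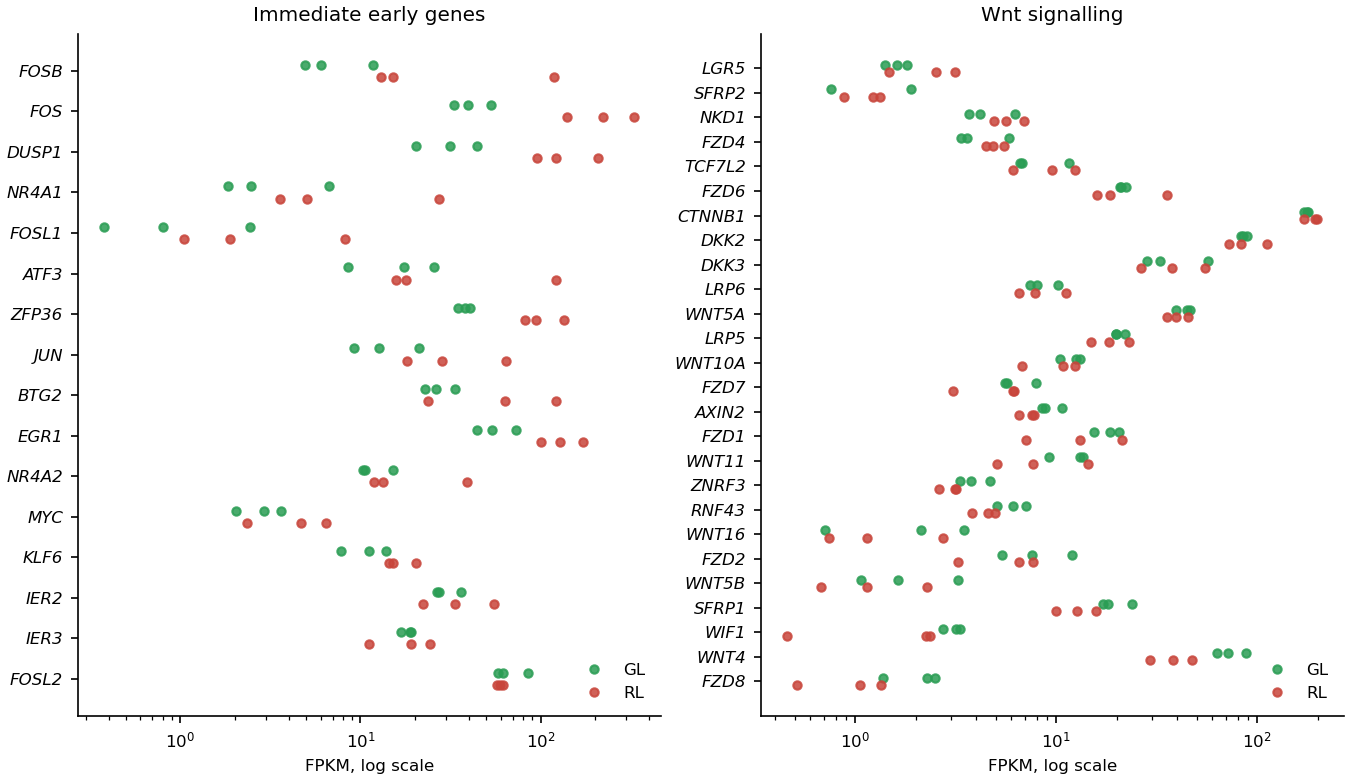
FPKM (log axis) in the 6 libraries of 16 immediate early genes (left) and 26 Wnt genes (right), ordered by the log2 difference, with 3 GL points above 3 RL points for each gene; the value of 0 for SFRP2 in GL 1 is not drawn. FOS, DUSP1, ZFP36 and EGR1 on the left lie lower in GL without overlap, and WNT4 and SFRP1 on the right lie higher in GL without overlap.

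Single genes of other lists were separated too. TGFBI, an abundant corneal matrix protein whose mutations cause stromal dystrophies, had an FPKM of 884, 1013 and 1035 in GL and 588, 541 and 623 in RL (log2 0.73 ± 0.20, edgeR adjusted p = 0.370), while the TGF-beta list had 11 of 22 higher. Among matrix proteases, PLAU, the urokinase-type plasminogen activator, had 50.2, 60.2 and 34.3 against 85.2, 76.1 and 131 (−1.03 ± 0.31), and MMP11 had 4.28, 8.05 and 4.24 against 10.1, 13.9 and 12.9 (−1.18 ± 0.37). MMP14 pointed the other way (0.37 ± 0.17), and of 18 described genes of the protease list 10 were higher and 8 lower in GL. Of these, 2 were separated above RL and 2 below, against 7.8% and 6.98% of all described genes. TEF, a transcription factor of clock output, had 43.8, 65.2 and 51.5 against 24.0, 38.0 and 29.6 (0.79 ± 0.23), and 11 of 19 clock genes were higher with a median of 0.02. TRIM25, a ubiquitin ligase of antiviral sensing, had 7.83, 7.17 and 7.66 against 4.58, 4.45 and 4.45 (0.73 ± 0.22), although 13 of 18 interferon genes were lower. The light-sensing gene OPN3 overlapped, at 39.7, 18.1 and 29.8 against 19.1, 33.1 and 19.1 (0.27 ± 0.32).

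Metabolic and growth lists showed small shifts with no call. Of 45 described entries of cytosolic ribosomal proteins, 29 were lower, with a median of −0.11 (−0.04 without RL 3). Of these 45, 6 were separated below RL, against 6.98% of all described genes. RPL27 had an FPKM of 366, 511 and 380 in GL and 780, 554 and 616 in RL (log2 −0.64 ± 0.17, edgeR adjusted p = 0.370), and RPL34 had 10.4, 507 and 22.6 against 626, 451 and 1204, an uneven pattern within GL. Oxidative phosphorylation had 14 of 19 lower with a median of −0.06 (SDHC −0.40 ± 0.14), and glycolysis and the pentose phosphate pathway had 12 of 20 higher with a median of 0.06 (−0.14 without RL 1). The cell cycle list had 22 of 31 lower with a median of −0.19 (−0.01 without GL 3). Of the 31, 4 were separated below RL and 2 above, against 6.98% and 7.8% of all described genes. TYMS, which makes thymidylate, went against the list and had its highest difference, at 15.8, 12.1 and 13.5 in GL against 6.27, 8.38 and 8.47 in RL (0.82 ± 0.25). With the set of libraries rich in low counts (RL 1, control 1 and all blue_light) as a covariate, the cell cycle median turned to 0.07. The antioxidant list had 12 of 22 higher (GCLC −0.66 ± 0.23). The p53 list had 12 of 21 lower, and its members ran from −2.12 to 1.31 (TP53I3, ± 0.43). The hypoxia list had 9 of 17 lower (HIF1A −0.50 ± 0.20), and retinoid, Notch and ion transport genes had medians of 0.01, 0.01 and 0.02.

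**Figure D5:**
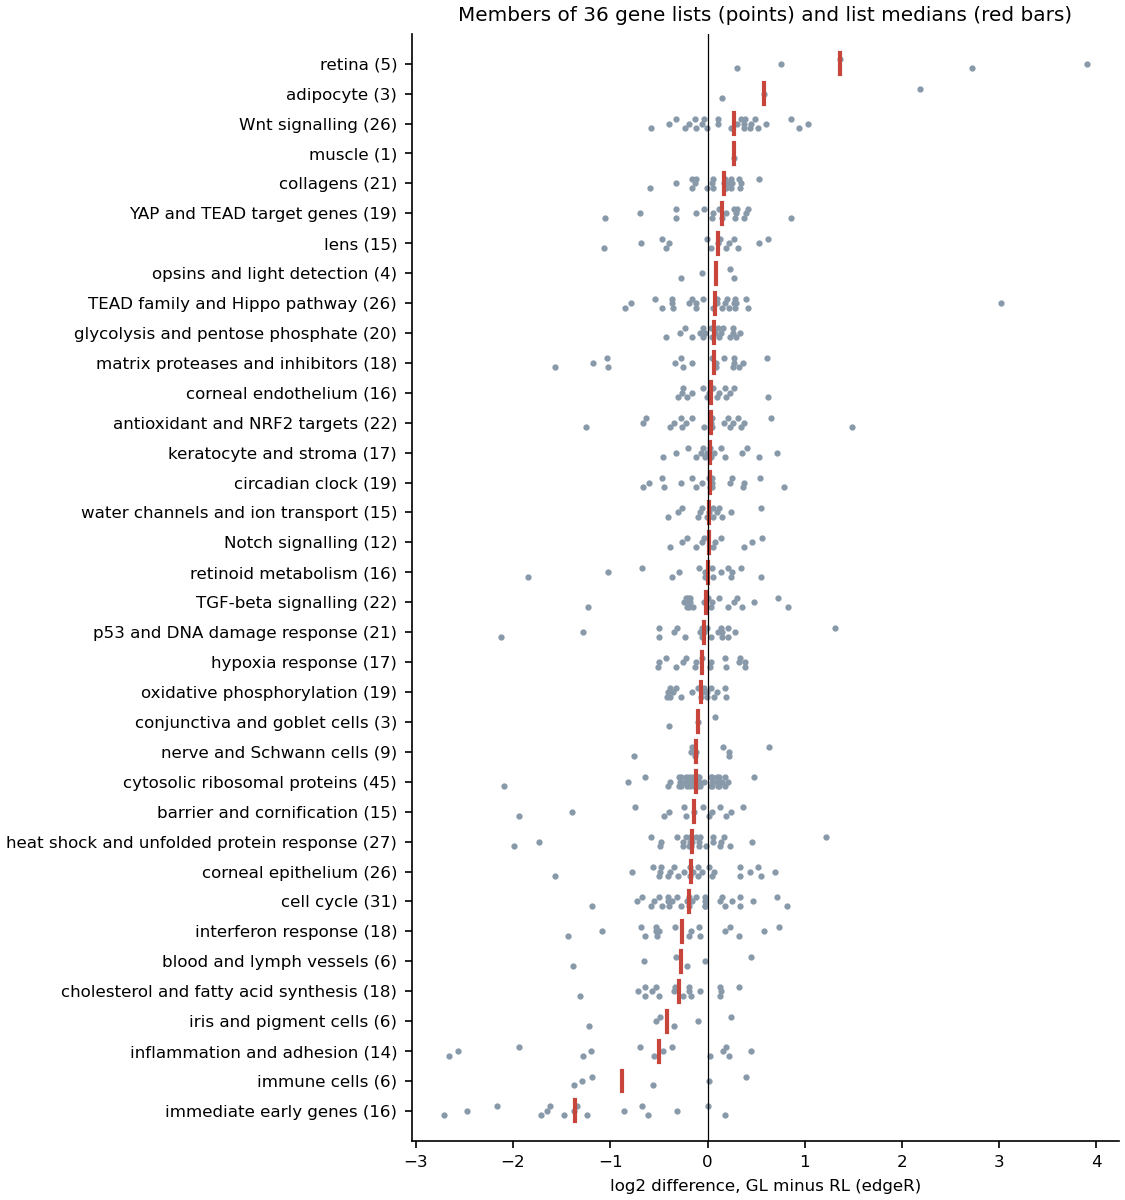
Log2 differences between GL and RL (horizontal axis, edgeR) of the described members of 36 gene lists (points, with their number in brackets) and the median of each list (red bars), sorted by the median. Medians run from −1.36 for immediate early genes to 1.36 for the retinal list, and most lie within 0.3 of 0.

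Leaving out 1 of the 6 libraries at a time turned the sign of the median in 19 of the 36 lists.

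Several markers of the cornea itself were abundant in all 6 libraries and differed little, though not every member of their lists did. Log2 differences ran from −1.57 to 0.69 for epithelial genes and from −1.94 to 0.36 for barrier genes, with none called. Of 26 epithelial genes, 2 were separated above RL and 1 below, against 7.8% and 6.98% of all described genes. KRT12, the keratin specific to corneal epithelium, had an FPKM of 12733, 12181 and 12025 in GL and 10585, 13334 and 14017 in RL (log2 −0.06 ± 0.19). The stromal proteoglycan genes KERA (−0.05 ± 0.23) and LUM (−0.20 ± 0.18) and the corneal crystallin gene ALDH1A1 (−0.02 ± 0.20) were as close, and PAX6, the eye-field transcription factor, differed by −0.18 ± 0.24. KRT3, the partner of KRT12, had 2914, 2730 and 2714 against 1700, 3176 and 3061, so RL 1 alone stood low. AQP5, the water channel of the epithelium, had 1878, 1941 and 2108 against 952, 1600 and 1444 (0.55 ± 0.22, edgeR adjusted p = 0.565). COL1A1, the main stromal collagen, had 2714, 3235 and 3170 against 991, 3537 and 1653, a spread within RL that exceeds the difference between groups. Of 26 epithelial genes 17 were lower (median −0.17, but 0.02 without RL 3), of 15 barrier genes 9 were lower (−0.13, and −0.37 without RL 1), of 17 stromal genes 9 were higher (0.03), of 21 collagens 14 were higher (0.17, and 0.03 without GL 3), and of 16 endothelial genes 9 were higher (0.04).

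Transcripts of neighbouring tissue were uneven over libraries. ROM1, a protein of photoreceptor outer segments, had an FPKM of 2.98, 3.39 and 19.7 in GL and 2.37, 4.14 and 3.56 in RL, and the summed retinal list reached 1137 CPM in GL 3 against 171 to 317 CPM in the 5 other libraries. The 5 described genes of the retinal list were all higher in GL (median 1.36), but without GL 3 the median was −0.08. All 24 deposited genes of the list reached 1 FPKM in at least 1 of the 6 libraries, though only 5 were described. They include GNB1, annotated as a subunit of G(I), G(S) and G(T) proteins, so the list is not confined to retinal genes and its sum is not retinal signal alone. Lens genes were low in GL 1 (805 CPM in sum) and RL 1 (669 CPM) and stood at 2923 to 3682 CPM in the 4 other libraries. Their median difference of 0.11 was −0.35 without RL 1, −0.24 without GL 3 and 0.55 without RL 2. TYRP1, a pigment cell enzyme, had 18.1, 17 and 16.6 against 82.1, 12.4 and 26.1, highest in RL 1. Lists of vessels (5 of 6 lower, median −0.27, and −0.08 without RL 2), nerve (5 of 9 lower, −0.11, but 0.24 without RL 2), conjunctiva (2 of 3 lower), iris and pigment cells (5 of 6 lower, −0.42, and −0.17 without RL 1), adipocytes (3 of 3 higher, 0.58, and 1.04 without RL 2) and muscle (1 of 1 higher) rested on few genes. LPL, a lipase of fat tissue, had 3.02, 1.23 and 3.39 against 0.465, 0.844 and 0.333. ACTC1, MYOG and PVALB of muscle and CD36, FABP4 and LEP of fat were at 0 in all 6 libraries. None of these members was called, and the part of such tissue in the called genes was not tested. With GL 3 and RL 2 both left out, TEAD1, DIP2C and HSPA13 stayed called. SDK1 and HPN kept log2 differences of 2.12 and 1.62, against 2.13 and 1.45 with all libraries, at edgeR adjusted p of 0.0636 and 0.0886. Without GL 3 alone, DIP2C, SDK1 and HPN were not called (edgeR adjusted p = 0.0548, 0.0659 and 0.147), while TEAD1 and HSPA13 were. The joint omission kept GL 1 and RL 1, which were low in lens genes, so it is no test of the part of such tissue.

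At the limit of the rule, 450 genes reached 1 FPKM in exactly 3 of the 6 libraries and 523 reached it in 2 and were left out. In 73 described genes all 3 libraries of 1 group reached 1 FPKM and none of the other did, and 2 of these were called (the L17 copies LOC100354651 and LOC100355319). Among described genes, LOC108177608, annotated as glutathione S-transferase Mu 1, had a count of 0 in all GL libraries and an FPKM of 3.43, 2.54 and 2.24 in RL. LOC100341781, annotated as a methylsterol monooxygenase 1, had 1.17, 1.19 and 1.20 in GL and a count of 0 in all RL libraries. Neither passed the threshold (edgeR adjusted p = 0.533 and 0.531), and reads of both may be shared with related copies.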

How the data were processed

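RNA from rabbit cornea was extracted with an RNeasy kit and sequenced after a SMARTer mRNA-seq preparation, per the labels' protocols. For each library the authors deposited estimated counts and FPKM values of genes in 1 table, per the file headers. The submitters' processing notes name GRCm38 and mm10, mouse builds, whereas the table places genes on rabbit sequences; aligner, counting tool and rabbit build were not given in the sources used here. Chromosome numbers were read from the deposited sequence names. Counts were whole, so rounding changed nothing, but low counts piled up in steps (2679 values of 4, against 851 of 3 and 626 of 5), and 1 fragment was taken as 3.83 counts. An FPKM listed at a count of 0 was set to 0. The libraries carry no molecular identifiers, so floors cover counting error only.

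Counts of all 12 libraries were fitted in R 4.3.3 with edgeR 4.0.16 (filterByExpr, TMM factors 0.944 to 1.06, glmQLFit and glmQLFTest with 4 group means). Of 29076 genes, 7628 were at 0 throughout, 18171 were tested, and p-values were adjusted over all of these by Benjamini-Hochberg. The biological coefficient of variation was 0.578. Standard errors are the log2 difference divided by the root of the F statistic. Levels are FPKM, and overlap of groups was read from CPM on TMM-adjusted library sizes. Alternatives used limma 3.58.1, DESeq2 1.42.0, other scalings, filters and pseudocounts, covariates, a replicate block and omission of libraries. Figures were drawn with matplotlib. On simulated data with 200 changed genes among 18171, the GL and RL contrast called 13.1% of 2-fold, 60.6% of 4-fold and 83.6% of 8-fold changes, with 3 false calls. The changed genes were drawn from those above a minimum mean CPM. Each gene had the same dispersion in all groups, so the wider spread of RL and uneven tissue content were not simulated.

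Named were all called genes, the 12 higher and 12 lower separated genes with a symbol and the smallest p, up to 4 members of each of 36 gene lists by p, a fixed set of 16 corneal and Hippo genes, and genes at a count of 0 in 1 group. Other list members are given for context, chosen after their values were seen. The comparison, the members and the lists were chosen with earlier results of these data known. Some genes that the rule names are not reported here.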

Additional observations from a re-analysis of the deposited data

How the results depend on the processing

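All 13 called genes kept their direction in 21 alternatives. Scaling by DESeq2 size factors or upper quartiles, no filter, testing described genes alone and counts divided by the step each left 13 calls, 4 higher and 9 lower in GL. Counts of calls here and below cover the described genes. DESeq2 gave 125 (60 higher, 65 lower) and limma on log2(FPKM + 1) gave 17 (7 higher, 10 lower). With a pseudocount of 0.1 limma gave 15 (6 and 9), and with array weights 49 (32 and 17). Genes outside the described were called as well: 72 by DESeq2, 14 by limma with array weights, and at most 3 in any other alternative. A fit of the 6 GL and RL libraries alone gave 7 calls (1 higher, 6 lower), library size as a covariate 12, the set of libraries rich in low counts as a covariate 14, and omission of both GL 3 and RL 2 gave 18. Leaving out 1 library gave 5 to 24 calls, with 1 to 11 higher and 4 to 17 lower. The cause of these shifts was not tested.

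The labels do not say whether replicate numbers pair the libraries. Deviations from the group means correlated at 0.15, −0.02 and −0.01 between GL and RL libraries of the same number. Between libraries of different numbers the values were −0.10 to 0.10. So few values cannot decide whether the libraries are paired. With the replicate block, all 12 libraries gave 9 calls (2 higher, 7 lower). In the 6 libraries alone the block gave 0 calls by edgeR (0 higher, 0 lower), with 877 described genes at an unadjusted p below 0.05, and TEAD1 then had an adjusted p of 0.0646.

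With 3 libraries a group, the simulated recovery of 2-fold changes was low, so many differences of that size may have gone uncalled. The simulation gave all groups the same dispersion, so its rates may not hold for RL, which spread more than GL. Depth set a floor of 0.178 to 0.249 CPM. Copies of 1 gene share reads.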

Other observations

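Genes without a symbol were outside the rule for naming, and the following were chosen after their values were seen, from the 10 separated, uncalled genes of that kind with the smallest p. LOC100349757, annotated as a rabbit class I histocompatibility antigen, which presents peptides to T cells, had an FPKM of 11.8, 11.6 and 8.04 in GL and 21.8, 20.9 and 20.3 in RL, with controls at 15.7 ± 1.39 (SD, n = 3), between the groups (log2 −1.02 ± 0.19, edgeR adjusted p = 0.126). LOC100337853, annotated as nucleolar GTP-binding protein 1, a factor of ribosome assembly, had 10.1, 9.54 and 7.83 in GL and 26.0, 16.7 and 23.4 in RL (−1.28 ± 0.24, adjusted p = 0.128). A second entry with that annotation, LOC100343001, had 2.45, 2.62 and 2.51 against 9.51, 4.49 and 10.6 (−1.70 ± 0.35, edgeR adjusted p = 0.160), and was lower in GL as well. Lack of overlap was a condition of the choice, and these entries may share reads.

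LOC100339205, annotated as NADH-cytochrome b5 reductase 2, had an FPKM of 38.4, 34.5 and 45.1 in GL and 11.8, 22.2 and 14.1 in RL, with controls at 31.1 ± 7.30 and blue_light at 16.6 ± 1.89 (log2 1.27 ± 0.26, edgeR adjusted p = 0.168). LOC100342240, annotated as myotubularin-related protein 9, had 12.9, 10.3 and 13.3 against 5.35, 5.23 and 6.44 (1.08 ± 0.22, adjusted p = 0.160). A copy annotated as cytochrome c, LOC100357329, had 9.82, 10.5 and 5.47 against 23.1, 22.2 and 26.1 (−1.49 ± 0.31, adjusted p = 0.176). Reads of the copies may be shared with their relatives, so their values are uncertain.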
